A study of Mus musculus with 2 samples.

Results

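A set of 38 genes of fatty acid, cholesterol and phospholipid metabolism was examined in mouse myeloid-derived suppressor cells (MDSCs), the immature and activated myeloid cells that restrain T cells in tumours. The genes were taken by symbol from the deposited table, and each symbol matched 1 of its 55401 gene rows. Of the 38 genes, 36 had a mean of at least 1 FPKM (fragments per kilobase of gene, scaled to the depth of the library) over both libraries, and Fads2 and Chka lay just below this minimum. RNA was sequenced from 2 libraries of C57BL/6 mice aged 8 weeks. The control library came from Mettl3fl/fl mice, whose Mettl3 alleles are floxed and which carry no Cre. The other came from LysM-cre, Mettl3fl/fl mice, in which Cre is expressed from the lysozyme M locus in myeloid cells. Mettl3 encodes the catalytic subunit of the m6A methyltransferase, which methylates adenosines of messenger RNA. The MDSCs of both genotypes were isolated with magnetic beads from tumour-bearing mice and then kept for 24 h with MC38, a mouse colon adenocarcinoma line. The tumour is given as MC38 for the control, and a field of the other sample reads MC39.

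Cells make fatty acids from acetyl-CoA that Acly draws from citrate, and elongases and desaturases then shape the chains. The SREBP factors, held in the endoplasmic reticulum with Scap by the Insig proteins when sterol is plentiful, switch on lipid synthesis genes when sterol is scarce. The liver X receptors, encoded by Nr1h2 and Nr1h3, sense oxidised sterols and drive cholesterol export, and the PPAR receptors sense fatty acids. In myeloid cells that take up lipid and dead cells, uptake through Cd36, storage in droplets and export through Abca1 and Abcg1 are known to be active, and lipid loading of MDSCs in tumours is known to accompany their suppression of T cells.

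A single library stood for each genotype, so no difference has a replicate check, no test was possible and no p-value is given. The libraries held 59506878 counts in the floxed control and 59393864 in the LysM-cre-labelled library. The targeted gene, Mettl3, stood at 4.16 FPKM in the control and 3.92 FPKM in the LysM-cre-labelled library, and its count ratio after scaling to depth (the CPM ratio) was 0.945 with a 95% counting interval of 0.876 to 1.02. The whole-gene value therefore did not separate the libraries, and directions are given for the library as labelled. All 7 MDSC markers were present in both libraries, with summed levels of 8887 and 7857 FPKM (6 of 7 lower in the LysM-cre-labelled library). RNA of other cell types was present as well. The 10 macrophage markers summed to 2617 and 2912 FPKM (9 higher), the 8 eosinophil markers to 672 and 895 (8 higher), the 7 erythroid markers to 988 and 1384 (7 higher), the 8 B and plasma cell markers to 454 and 738 (1 higher, Jchain, and 7 lower) and the 7 T and NK cell markers to 190.5 and 198 (2 higher and 4 lower of 6 above the minimum). Epithelial markers, which MC38 cells could carry over, summed to 3.98 and 4.19 FPKM over 7 genes, with Krt19 and Cldn3 at 0 counts. The 6 adipocyte markers summed to 0.739 and 0.595 FPKM, with Lep, Plin1 and Cidec at 0 counts. In such bulk RNA, fewer cells of a type and less RNA per cell cannot be told apart.

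Most of the lipid genes differed little between the libraries. Of the 36 genes above the minimum, 32 (88.9%) differed by less than 1.25-fold between the libraries on the scale of FPKM + 1, against 83.9% of all 12526 genes above the minimum and 89.9% of the protein-coding ones. A level of FPKM + 1 higher by 1.5-fold or more in the LysM-cre-labelled library was found for 1 gene, Scd2, which is 2.78% of the 36, against 3.19% of all genes and 1.53% of the protein-coding ones. At least 1.5-fold lower FPKM + 1 was found for 2 genes, Pcyt1a and Ppard, which is 5.56%, against 3.28% of all genes and 1.60% of the protein-coding ones. At 2-fold or more, Scd2 was higher and Pcyt1a lower, where 1.31% of all genes were higher and 1.18% lower, and 0.576% and 0.488% of the protein-coding ones. All 36 genes are protein-coding, and the counts of 1 and 2 genes are too few to read the list as apart from either background or like it. The same 3 genes were the only ones of the 36 outside the range of −0.69 to 0.66 that held the middle of the log2 ratios of all genes, from the 2.5th to the 97.5th percentile.

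**Figure D1:**
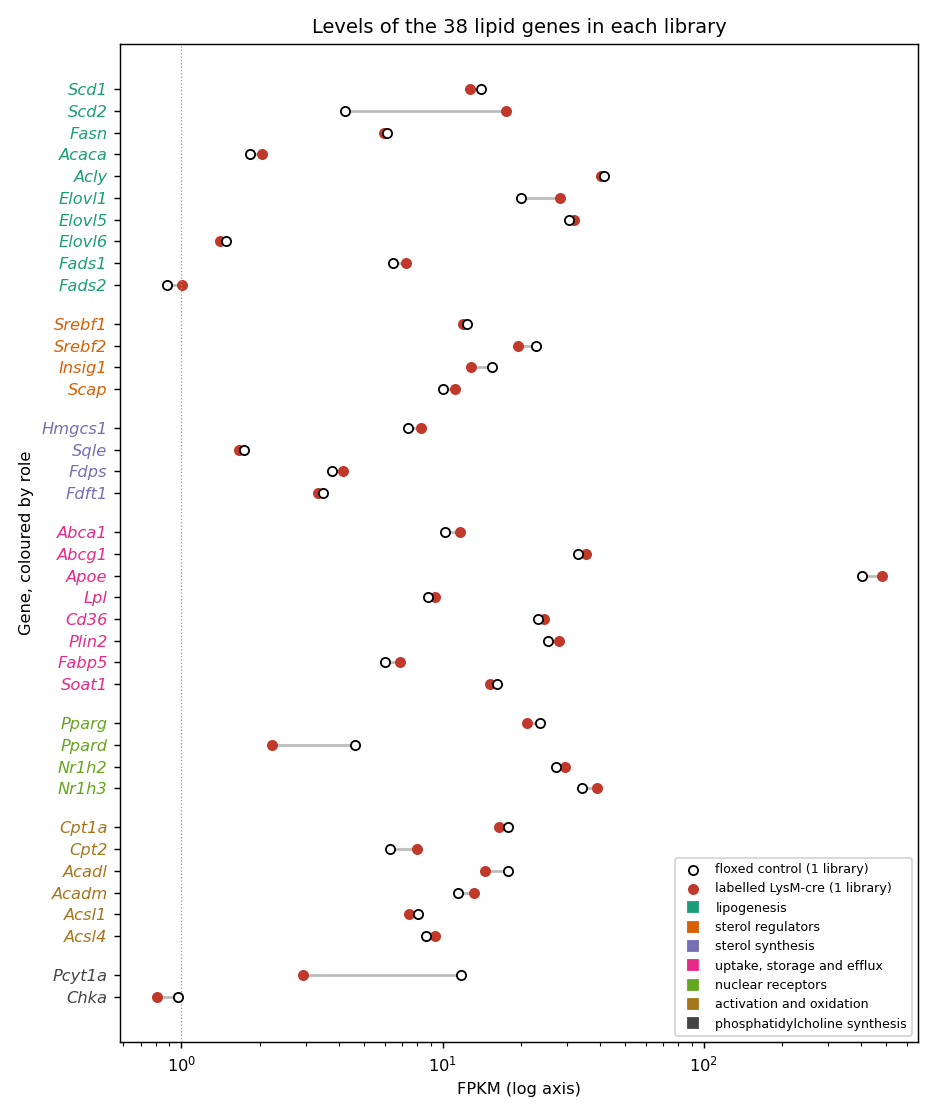
Level of each of the 38 genes in FPKM (log axis) in the floxed control library (open points) and the LysM-cre-labelled library (red points), with gene names coloured by role. Scd2 (4.24 and 17.5 FPKM), Ppard (4.64 and 2.23) and Pcyt1a (11.8 and 2.93) have widely spaced points, and most other pairs nearly touch.

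Small differences lay in both directions. By the log2 ratio of FPKM + 1, 20 of the 36 genes were higher in the LysM-cre-labelled library and 16 lower, so that 55.6% were higher, against 50.3% of all genes. The interval of the CPM ratio lay wholly above 1 for 20 of the 36 genes (55.6%), against 30.1% of all genes. It lay wholly below 1 for 11 (30.6%), against 29.7%. The lipid genes were more deeply counted, with a median summed count of 8784 against 3408 for all genes, and a deeper gene has a narrower interval, so these shares are not like for like. The median log2 ratio of FPKM + 1 was 0.08 over the 36 genes and 0.00 over all genes. The 38 genes together took 0.387% of the counts in the control and 0.409% in the LysM-cre-labelled library. Of these 230354 and 242884 counts, Apoe alone held 57895 and 68740, and Scd2 held 1548 and 6389. The summed share therefore does not describe the set as a whole. The intervals cover counting error only, and neither the mates of a pair nor PCR copies are separate molecules.

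**Figure D2:**
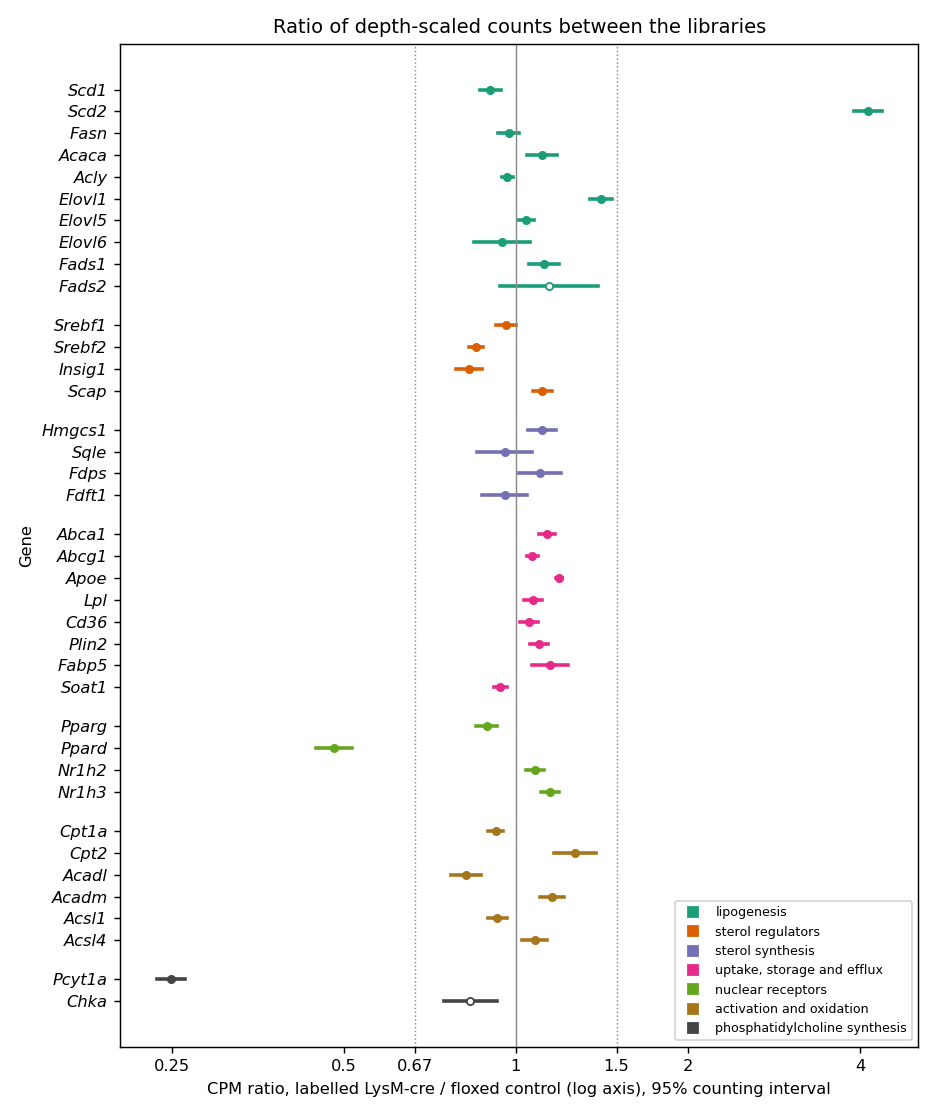
CPM ratio of each gene (LysM-cre-labelled library over floxed control, log axis) with its 95% counting interval. Dotted lines mark 1.5-fold in either direction and open points mark Fads2 and Chka, below the minimum level. The intervals of Scd2 (3.91 to 4.37), Ppard (0.447 to 0.516) and Pcyt1a (0.235 to 0.264) lie wholly beyond the dotted lines, and Elovl1 (1.35 to 1.47) lies just inside.

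Scd2 had the largest difference of the set. It encodes a stearoyl-CoA desaturase, which puts the first double bond into saturated fatty acids. Scd2 (ENSMUSG00000025203, chromosome 19, 44293674 to 44306864 on the plus strand, mm10) stood at 4.24 FPKM in the control and at 17.5 FPKM in the LysM-cre-labelled library, on 1548 and 6389 counts. The CPM ratio was 4.14 (95% interval 3.91 to 4.37) and the log2 ratio of FPKM + 1 was 1.82. Its relative Scd1, the chief desaturase of liver and fat, lies 87591 bases away on the minus strand and went slightly the other way, at 14.1 and 12.7 FPKM (4601 and 4141 counts, CPM ratio 0.902, 0.864 to 0.941). The Scd2 level was thus 0.301 of the Scd1 level in the control and 1.38 of it in the LysM-cre-labelled library, so the order of the pair was exchanged. The other desaturases of the cluster were barely detected, with Scd3 at 12 and 29 counts and Scd4 at 45 and 34. The 4 genes together stood at 18.5 and 30.5 FPKM.

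The Scd genes are close copies. The longest open reading frame of Scd2, with 1077 bases, was 90.4% identical to that of Scd1, 88.3% to that of Scd3 and 83.8% to that of Scd4 over the aligned bases of their GENCODE M21 transcripts. The longest identical run shared by the Scd2 and Scd1 transcripts that hold these reading frames was 147 bases, just under the read length of 150 bases. The sources used here do not say how reads that match several places were treated. The summed counts of the 4 genes were 6206 and 10593. Whether reads were exchanged between the Scd genes was not tested. On the other side the nearest protein-coding gene above 1 FPKM, Bloc1s2, stood at 18.1 and 23.0 FPKM.

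Pcyt1a had the largest difference downward. It encodes the enzyme that makes CDP-choline, usually the rate-limiting step of phosphatidylcholine synthesis. Pcyt1a (ENSMUSG00000005615, chromosome 16, 32430921 to 32475070 on the plus strand) stood at 11.8 FPKM in the control and at 2.93 FPKM in the LysM-cre-labelled library, on 5833 and 1451 counts. The CPM ratio was 0.249 (0.235 to 0.264), and the log2 ratio of FPKM + 1 was −1.70. Chka, the choline kinase of the preceding step, stood at 0.969 and 0.803 FPKM (782 and 650 counts, 0.833, 0.749 to 0.925), below the minimum level. The remaining genes of this route were nearer to level. Chkb, the second choline kinase, stood at 9.47 and 10.7 FPKM. Cept1 and Chpt1, which transfer phosphocholine to diacylglycerol, stood at 14.8 and 13.0 and at 2.30 and 2.50 FPKM. Pcyt2, which acts at the matching step for phosphatidylethanolamine, stood at 7.33 and 7.77 FPKM, and Pcyt1b, the second isoenzyme, at only 0.103 and 0.0993. The level of Pcyt1a was 1.61 of that of Pcyt2 in the control and 0.377 of it in the LysM-cre-labelled library. The nearest such genes on either side of Pcyt1a were close in level, with Tctex1d2 at 4.48 and 4.25 FPKM and Tfrc at 5.98 and 5.48. Rows overlapping Pcyt1a on the opposite strand held only 43 and 18 counts.

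The promoter windows were searched for a form of the sterol regulatory element, a site that SREBP factors bind. This was done because both synthesis and its regulators are in the set. RefSeq windows (GRCm38.p6, the same assembly as mm10) from 250 bases before to 50 bases after the start were found for 29 of the 38 genes, and not for Scd1, Scd2, Fads1, Sqle, Fdps, Fdft1, Abcg1, Lpl and Fabp5. The letters TCACNCCAC, on either strand, were present for 3 of the 29 genes (10.3%), namely Pcyt1a, Hmgcs1 and Acsl1, against 1.44% of 27025 genes with a window. A gene was counted if any of its windows held a match, and for Acsl1 the window of the first start held none. Fasn, Acly, Insig1, Srebf1 and Srebf2 had windows without a match to these letters. Other spellings of the element were not searched, so a window without a match may still hold a variant. A count of 3 genes is too few to read the share as apart from that of all genes. The CCAAT box, the letters CCAAT on either strand, was present for 16 of 29 (55.2%), against 41.1%. The windows of Pcyt1a (chr16:32430671-32430970, plus strand) and Hmgcs1 (chr13:119690101-119690400, plus strand) are shown because both carry TCACNCCAC while the genes lay at CPM ratios of 0.249 and 1.11. Capitals mark TCACNCCAC and, in Hmgcs1, the CCAAT boxes as well, which all read ATTGG on this strand.
Pcyt1a: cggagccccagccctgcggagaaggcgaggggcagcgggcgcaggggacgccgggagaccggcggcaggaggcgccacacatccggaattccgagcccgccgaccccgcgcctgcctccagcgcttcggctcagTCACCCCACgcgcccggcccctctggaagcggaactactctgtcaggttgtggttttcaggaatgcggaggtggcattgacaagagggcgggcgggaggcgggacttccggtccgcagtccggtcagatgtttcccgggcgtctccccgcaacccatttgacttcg
Hmgcs1: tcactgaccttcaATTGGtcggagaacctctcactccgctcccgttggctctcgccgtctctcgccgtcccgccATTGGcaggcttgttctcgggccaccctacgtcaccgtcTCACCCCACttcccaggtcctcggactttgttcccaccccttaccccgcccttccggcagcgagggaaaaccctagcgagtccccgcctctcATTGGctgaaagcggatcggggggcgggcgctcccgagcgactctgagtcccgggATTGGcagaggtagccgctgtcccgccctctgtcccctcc
RefSeq gives 3 start sites for Pcyt1a, and the window shown is that of the first. The TCACNCCAC match began 116 bases before that start and 215 bases before the second, and the window of the third held no match. The match began 137 bases before the start of Hmgcs1, and read TCACCCCAC in both genes. A match of letters is a description and does not show binding.

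Ppard was the third gene beyond 1.5-fold. It encodes PPAR-delta, a fatty acid receptor that is widely expressed. Ppard (ENSMUSG00000002250, chromosome 17, 28232700 to 28301474 on the plus strand) stood at 4.64 FPKM in the control and at 2.23 FPKM in the LysM-cre-labelled library, on 2332 and 1119 counts. The CPM ratio was 0.481 (0.447 to 0.516), and the log2 ratio of FPKM + 1 was −0.80. No other row overlapped it, and its nearest such neighbours, Def6 (24.0 and 26.5 FPKM) and Fance (1.95 and 2.67), were higher rather than lower. With a pseudocount of 5 FPKM its log2 ratio was −0.41, short of 1.5-fold. Pparg, the receptor of fat cells and of alveolar and other macrophages, was more abundant and nearer to level, at 23.7 and 21.1 FPKM (4676 and 4151 counts, 0.889, 0.853 to 0.928). Pparg exceeded Ppard 5.11 times in the control and 9.45 times in the LysM-cre-labelled library.

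Both liver X receptors were slightly higher in the LysM-cre-labelled library. Nr1h3, which encodes the form abundant in macrophages, stood at 34.1 and 39.2 FPKM on 5728 and 6568 counts (CPM ratio 1.15, 1.11 to 1.19). Nr1h2, which encodes the widely expressed form, stood at 27.1 and 29.3 FPKM (1.08, 1.04 to 1.12). The level of Nr1h3 was 1.26 times that of Nr1h2 in the control and 1.34 times in the LysM-cre-labelled library. Rxra, which encodes a common partner of these receptors and of the PPARs, was also higher, at 24.5 and 30.3 FPKM (1.24, 1.20 to 1.27). Its relative Rxrb was not, at 18.5 and 18.0 FPKM, with an interval that held 1 (0.932 to 1.01).

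Genes for lipid uptake, storage and export were mostly slightly higher. Of 8 genes, 7 were higher in the LysM-cre-labelled library, where 6295 of all 12526 genes were. Each of the 7 had an interval above 1, as had 30.1% of all genes. The interval depends on depth, so these shares may not be like for like. Over the 8 genes the median log2 ratio was 0.11, and none was beyond 1.5-fold. Apoe, the apolipoprotein that carries cholesterol out of macrophages, was the most abundant of the 38 genes, at 405 and 482 FPKM on 57895 and 68740 counts (CPM ratio 1.19, 1.18 to 1.20). The cholesterol exporters Abca1 (10.2 and 11.6 FPKM, 1.13, 1.10 to 1.17) and Abcg1 (33.0 and 35.3 FPKM, 1.07, 1.05 to 1.09) were higher by less. The fatty acid carrier Fabp5 stood at 6.02 and 6.90 FPKM on 1435 and 1642 counts (1.15, 1.07 to 1.23). The fatty acid translocase Cd36 stood at 23.1 and 24.4 FPKM, lipoprotein lipase Lpl at 8.77 and 9.39, and the droplet coat gene Plin2 at 25.4 and 27.8. Soat1, which esterifies cholesterol for storage, was the exception, at 16.2 and 15.2 FPKM (0.939, 0.914 to 0.966). Several of these genes are known from macrophages, whose 10 markers had a summed level 1.11 times as high in the LysM-cre-labelled library. The part of the macrophage share in these differences was not tested.

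Genes of fatty acid synthesis other than Scd2 differed little, apart from an elongase. Elovl1, which elongates saturated chains to very long ones, stood at 19.9 FPKM in the control and 28.1 FPKM in the LysM-cre-labelled library, on 3631 and 5107 counts (CPM ratio 1.41, 1.35 to 1.47). Its row (chromosome 4, 118428093 to 118432953, plus strand) is overlapped on the opposite strand by Cdc20, whose counts were lower in that library (902 and 805). Elovl5, which elongates polyunsaturated chains, stood at 30.6 and 31.9 FPKM, and Elovl6, which takes palmitate to stearate, at 1.48 and 1.40. Acly, which supplies cytosolic acetyl-CoA, stood at 41.6 and 40.3 FPKM. Acaca, the carboxylase of the first committed step, was low, at 1.83 and 2.04, and the synthase Fasn stood at 6.13 and 5.96, with an interval that held 1 (0.932 to 1.01). The desaturases of polyunsaturated fatty acids were unequal in level, with Fads1 at 6.46 and 7.24 FPKM and Fads2 at 0.878 and 1.00. The proportion of Fads1 to Fads2 was close, 7.36 and 7.21. Over the 9 genes in this role above the minimum, 5 of them higher and 4 lower, the median log2 ratio was 0.06.

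**Figure D3:**
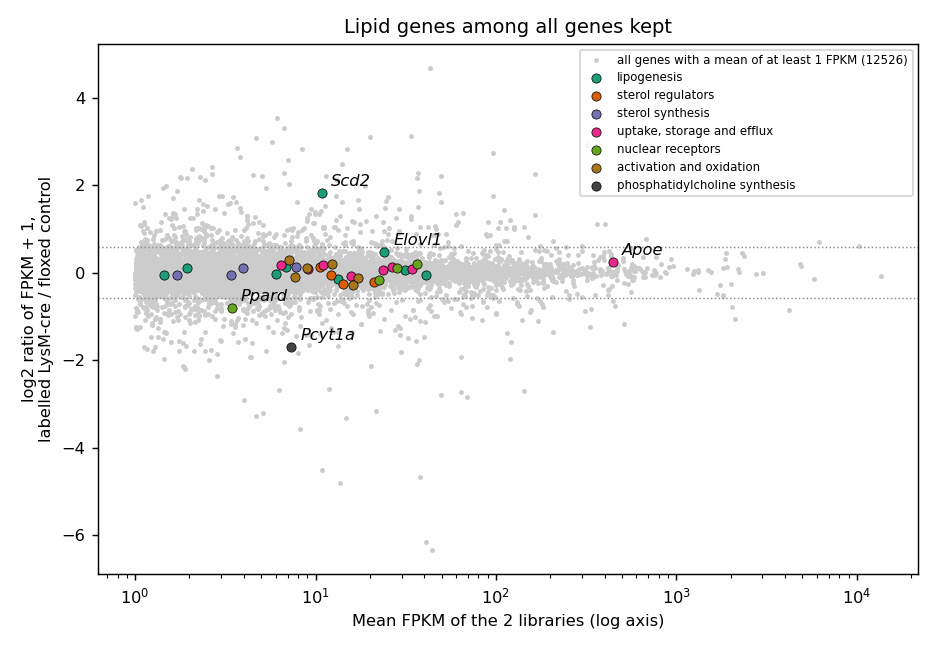
Log2 ratio of FPKM + 1 (LysM-cre-labelled library over floxed control) against the mean FPKM of both libraries (log axis) for the 12526 genes above the minimum (grey) and the 36 lipid genes among them (coloured by role). Dotted lines mark 1.5-fold. Scd2 lies above the upper line, Pcyt1a and Ppard lie below the lower one, and the other 33 lipid genes lie between the lines.

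The regulators of sterol synthesis were mostly slightly lower. Insig1, which retains the SREBP precursor and is itself a target of SREBP, stood at 15.5 and 12.8 FPKM on 3208 and 2648 counts (CPM ratio 0.827, 0.785 to 0.871). Srebf2, which encodes the SREBP of sterol genes, stood at 22.8 and 19.4 FPKM on 10940 and 9292 counts (0.851, 0.828 to 0.875). Srebf1, which encodes the SREBP of fatty acid genes, stood at 12.4 and 11.9 FPKM, with an interval that held 1 (0.923 to 1.00). Rai1, on the opposite strand, overlaps Srebf1 and held 2160 and 1585 counts. Scap, the escort of the SREBP precursors, went the other way, at 10.05 and 11.2 FPKM (1.11, 1.07 to 1.16).

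The sterol enzymes in the set did not share a direction. Hmgcs1, which makes HMG-CoA, stood at 7.40 and 8.24 FPKM on 2275 and 2524 counts (CPM ratio 1.11, 1.05 to 1.18). Fdps, which makes farnesyl diphosphate, stood at 3.77 and 4.17 FPKM on 1065 and 1172 counts (1.10, 1.01 to 1.20). Fdft1, the squalene synthase, stood at 3.48 and 3.33 FPKM, and Sqle, which oxidises squalene, at 1.74 and 1.66, and the interval held 1 for each. Fdft1 is overlapped on the opposite strand by the cathepsin gene Ctsb, with 224537 and 248511 counts against 959 and 915 for Fdft1 itself. The sources used here do not say how strand was used in counting, so the Fdft1 value is uncertain.

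A wider list of 24 sterol synthesis and uptake genes outside the set held more lower than higher values. Of 21 above the minimum, 16 were lower and 5 higher. Their median log2 ratio was −0.13. Of the 21, the interval lay below 1 for 12 and above 1 for 4, where 29.7% of all genes lay below and 30.1% above. As above, the interval depends on depth. The depth of this list was not compared with that of all genes, so these shares may not be like for like. At least 1.5-fold lower FPKM + 1 was found for 1 of the 21, against 3.28% of all genes and 1.60% of the protein-coding ones. This was Hsd17b7, a reductase of late sterol synthesis, at 1.45 and 0.619 FPKM on 495 and 212 counts (CPM ratio 0.429, 0.364 to 0.505). Its mean lay just above the minimum, and its log2 ratio of FPKM + 1, −0.60, was just past 1.5-fold.

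Fatty acid activation and oxidation genes were split evenly. Of 6 genes, 3 were higher and 3 lower in the LysM-cre-labelled library, and the median log2 ratio was 0.00. The interval lay above 1 for 3 and below 1 for 3, where 30.1% of all genes lay above and 29.7% below. The interval depends on depth, so these shares may not be like for like. The paired carnitine palmitoyltransferases went opposite ways. Cpt1a, the gate of mitochondrial entry, stood at 17.8 and 16.5 FPKM (CPM ratio 0.922, 0.895 to 0.949), and Cpt2, on the inner membrane, at 6.27 and 7.96 on 1003 and 1271 counts (1.27, 1.17 to 1.38). So did the acyl-CoA dehydrogenases. Acadl, for long chains, stood at 17.8 and 14.5 FPKM on 2378 and 1938 counts (0.817, 0.769 to 0.867), and Acadm, for medium chains, at 11.4 and 13.2 (1.16, 1.10 to 1.22). The acyl-CoA synthetases, which activate fatty acids, stood at 8.02 and 7.45 FPKM for Acsl1 and at 8.66 and 9.34 for Acsl4, which prefers arachidonate. A row overlapping Acadl on the same strand, the predicted gene Gm15793, held 175 and 221 counts.

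In the other lists of lipid genes outside the set, higher and lower values were close to even in number. No gene above the minimum in them was 1.5-fold apart in FPKM + 1. Over all genes, 30.1% of intervals lay above 1 and 29.7% below. The depth of these lists was not compared with that of all genes, so the interval counts may not be like for like with these shares. Of 12 further fatty acid synthesis genes above the minimum, 7 were higher and 5 lower (median log2 ratio 0.02; 3 intervals above 1 and 4 below), with Acss2, an acetyl-CoA synthetase, at 4.19 and 3.24 FPKM and the desaturase relative Fads3 at 1.53 and 1.98. Of 27 phospholipid and triglyceride synthesis genes, 13 were higher and 14 lower (median −0.02; 9 intervals above 1 and 9 below). Within them Lpcat1, a lysophosphatidylcholine acyltransferase, stood at 5.19 and 7.72 FPKM (CPM ratio 1.49, 1.40 to 1.59), and Dgat1, which makes triglyceride, at 10.8 and 13.7. Of 22 oxidation genes, 11 were higher and 11 lower (median −0.01; 4 intervals above 1 and 8 below), with the short-chain dehydrogenase gene Acads at 13.6 and 9.80 FPKM and the carnitine acetyltransferase gene Crat at 5.78 and 4.22. Of 23 uptake, storage, efflux and receptor genes, 13 were higher and 10 lower (median 0.02; 7 intervals above 1 and 7 below). Rxra, above, and the apolipoprotein gene Apoc1, at 13.9 and 17.5 FPKM, had the largest log2 ratios of FPKM + 1 in that list. Some genes under the minimum were further apart by CPM ratio. Among them were the droplet coat genes Plin4, with 134 and 4 counts (CPM ratio 0.0299, 0.00803 to 0.0784), and Plin5, with 95 and 51 (0.538, 0.375 to 0.764). Mlxipl, a glucose-responsive regulator of lipogenesis, had 116 and 67 counts (0.579, 0.422 to 0.788), and the acetyl-CoA carboxylase gene Acacb had 33 and 8 (0.243, 0.0969 to 0.536). In all, 1 of the 105 genes above the minimum in these lists was 1.5-fold lower in FPKM + 1. The shares were 3.28% of all genes and 1.60% of the protein-coding ones. None was 1.5-fold higher, against 3.19% of all genes and 1.53% of the protein-coding ones. These counts are too few to read the lists as apart from the protein-coding background. The share within 1.25-fold was 94.3%, against 83.9% of all genes and 89.9% of the protein-coding ones.

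**Figure D4:**
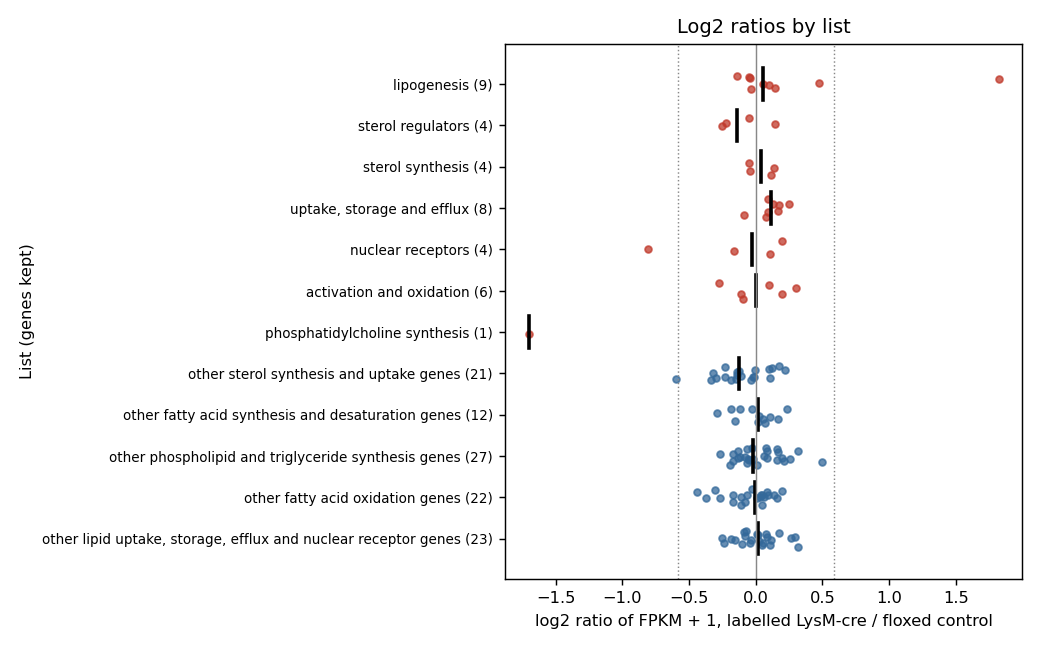
Log2 ratio of FPKM + 1 (LysM-cre-labelled library over floxed control) of each gene above the minimum, for the 36 lipid genes by role (red) and for 105 other lipid genes by list (blue), with the number of genes in brackets. Black bars are medians, vertical scatter within a line is only for legibility, and dotted lines mark 1.5-fold. The bar of uptake, storage and efflux genes stands at 0.11, that of the other sterol genes at −0.13, and the lone phosphatidylcholine gene above the minimum, Pcyt1a, at −1.70.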

How the data were processed

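Poly(A) RNA of 1 library per genotype was read as paired ends, per the labels. The submitters' processing notes name cutadapt 1.9, HISAT2 2.0.4, StringTie 1.3.4d, edgeR, DESeq2 and mm10 without saying what each did. The deposited counts are whole numbers per gene row, not normalized. The authors also deposited FPKM values, scaled to depth and gene length, and 0.0001 at a count of 0 was read as 0. The 8 columns of 4 libraries without labels were not used. Coordinates are those of the table, and 32 of the 38 genes have the same ones in GENCODE M21.

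The log2 ratio is that of FPKM + 1 (pseudocount 1), for genes whose mean reached 1 FPKM, and it understates differences of low genes. CPM ratios carry exact 95% (Clopper-Pearson) intervals conditional on the summed count. The precision is set by the 59506878 and 59393864 counts. No test fits 1 library per group. TMM factors came from edgeR 4.0.16 (R 4.3.3). The calculation was tested on simulated data. Motif letters were searched on both strands, and Scd reading frames aligned globally (Biopython 1.88). Other calculations used scipy 1.17.1, pandas 2.3.3 and numpy 2.4.6 under Python 3.11.15, with matplotlib 3.10.9 for plots.

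The 38 genes, the lists beside them and the thresholds were chosen with earlier results of these data known. All 38 genes are named. Full values go to genes 1.5-fold apart and to the 2 with the largest log2 ratio in each role, and of each wider list the genes 1.5-fold apart or otherwise the 2 with the largest log2 ratio are named, apart from some results not reported here. The other Scd genes, Rxrb and the genes of phosphatidylcholine synthesis were named for context after their values were seen. So were genes of the wider lists under the minimum, and overlapping or neighbouring genes. Alternatives were other scalings, pseudocounts, minimums, thresholds and summed rows.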

Additional observations from a re-analysis of the deposited data

How the results depend on the processing

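Each of the 38 genes kept the sign of its log2 ratio under every alternative that gave it a value (TPM, median-of-ratios and TMM scaling, CPM in place of FPKM, pseudocounts of 0.1 and 5 FPKM, no minimum or 5 FPKM, and summed rows). The median over the lipid genes ran from 0.06 at a pseudocount of 5 FPKM to 0.09 at a minimum of 5 FPKM. Scd2 was the 1 gene at least 1.5-fold higher under all of these. Of the 2 lower genes, 1 (Pcyt1a) was left at a pseudocount of 5 FPKM, at a minimum of 5 FPKM and at a threshold of 2-fold, the first and last by the size of Ppard's ratio and the second because Ppard lies below that minimum. No paired analysis was possible because each genotype had 1 library. For the same reason no library could be left out, and the difference between libraries cannot be told apart from that between mice or cultures. Counting intervals limit the least counted genes most, such as Fads2 (0.937 to 1.39).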
